A study of Rattus norvegicus with 24 samples.

Results

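The 9 genes described here mark Purkinje cells and were followed on 24 arrays of rat cerebellum: Calb1, Pcp2, Pcp4, Car8, Itpr1, Foxp2, Homer3, Ppp1r17 and Rgs8. They were taken by name from the annotated expression table, which held 18137 genes after 1 probe set was kept per gene, and all 9 were found. The table lists 8 of them under these symbols, and Ppp1r17 under the older symbol Gsbs, which RefSeq gives as its synonym. Itpr1 and Foxp2 have 2 probe sets each, of which the one with the higher mean over the arrays was used. Purkinje cells are the large inhibitory neurons of the cerebellar cortex and its sole output, and they receive excitation from granule cell axons and from climbing fibres. Their dendrites combine strong calcium entry with calcium release through inositol trisphosphate (IP3) receptors, driven by receptors that act through G proteins. Most of the 9 genes code for parts of that calcium and G protein machinery.

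The arrays came from Sprague-Dawley rats used to model hepatic encephalopathy, in which brain function declines when the liver fails or is bypassed. Sham rats had control surgery (5 arrays), and PCA rats had a portocaval anastomosis, which diverts portal blood past the liver (5 arrays, 6 months after surgery). The other three groups had PCA and 10 infusions, one every 2 weeks: ammonia in PCA+NH3 (20 µl/min for 3 h, 5 arrays), bacterial lipopolysaccharide in PCA+LPS (5 mg/kg, 5 arrays), or both in PCA+NH3+LPS (4 arrays). Every infused group therefore carries the shunt, and infusion without a shunt was not among the groups. Ages, and whether Sham and PCA rats were given vehicle, were not stated in the labels or the series text. Nothing in the labels ties the numbered samples to separate animals, so that p-values measure only the spread between these samples, which may be technical.

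Array values are log2 expression values, deposited in steps of 0.1, so a difference of 1 is a doubling. Most of the 9 genes varied together from array to array. In 6 of them 1 Sham array was lower than all others, as it was in 10.8% of all genes. Between the 5 treatment groups none of the 9 genes differed past the test, and at most 0.0331% of all genes did in any comparison on all arrays. Granule cell genes, which define cerebellar tissue by their abundance, had mean values from 8.9 to 12.3. In bulk tissue, fewer Purkinje cells in a sample and less of a transcript per cell cannot be told apart, and this holds for every value that follows.

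Promoter sequences of the 9 genes were looked up in RefSeq (build GRCr8), whose table holds 6 of them, over 300 bases from 250 before to 50 after the start that this table uses. That start lies inside the span RefSeq gives for the gene in each of the 6, farthest in Pcp4, Rgs8 and Homer3, so other starts of these genes were not covered. The strands were searched for AGGTCA and its reverse complement TGACCT, the core of the site bound by ROR-alpha, the nuclear receptor that Purkinje cells need for their development. It was found in 2 of the 6, and in 16.2% of all 33469 promoters of that length. Those with a match, Pcp2 and Homer3, are shown so that the reported positions can be seen. The Pcp2 promoter lies at chr12:6481258-6481557 on the minus strand, and the Homer3 promoter at chr16:19174549-19174848 on the minus strand. Capitals mark the match, whose first base lies at -26 from the table's start in Pcp2 and at +33 in Homer3.
Pcp2: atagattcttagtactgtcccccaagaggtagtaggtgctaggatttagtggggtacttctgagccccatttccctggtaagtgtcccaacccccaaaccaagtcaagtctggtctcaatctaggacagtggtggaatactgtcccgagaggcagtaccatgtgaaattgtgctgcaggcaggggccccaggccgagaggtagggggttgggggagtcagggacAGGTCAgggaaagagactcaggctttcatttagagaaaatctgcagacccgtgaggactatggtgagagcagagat
Homer3: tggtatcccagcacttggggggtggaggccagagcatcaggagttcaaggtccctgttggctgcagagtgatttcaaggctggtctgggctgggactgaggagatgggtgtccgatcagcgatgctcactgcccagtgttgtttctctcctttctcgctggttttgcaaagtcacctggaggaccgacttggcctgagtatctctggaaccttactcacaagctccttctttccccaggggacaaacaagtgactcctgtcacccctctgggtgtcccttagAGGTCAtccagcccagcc
A match describes these letters only, and the 4 promoters without one (Itpr1, Pcp4, Ppp1r17 and Rgs8) say nothing about binding elsewhere.

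Calb1 codes for calbindin, the main calcium buffer of Purkinje cells. In Sham its log2 values were 9.6, 10.5, 10.1, 10.4 and 10.2, and in PCA they were 10.4, 10.5, 9.9, 10.2 and 10.2. In PCA+NH3 they were 10.2, 10.2, 10.3, 10.1 and 10.0, in PCA+LPS 10.5, 10.5, 10.5, 10.4 and 10.3, and in PCA+NH3+LPS 10.3, 10.3, 10.2 and 10.2. Sham replicate 1 was by far the lowest, the PCA+LPS arrays were the highest as a group, and the ranges of all groups overlapped or met. PCA+LPS exceeded Sham by 0.28 ± 0.124 (SE), with a 95% interval of 0.0242 to 0.536 and an unadjusted p of 0.0333, but the adjusted p of limma over all genes was 0.622. With Sham replicate 1 left out the difference was 0.14, with an unadjusted p of 0.174.

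Ppp1r17 codes for G-substrate, a phosphatase inhibitor phosphorylated by the cGMP-dependent kinase in Purkinje cells. Its values were 8.6, 9.9, 9.6, 9.8 and 9.7 in Sham and 9.9, 9.8, 9.5, 9.6 and 9.8 in PCA. They were 9.5, 9.6, 9.8, 9.5 and 9.5 in PCA+NH3, 9.7, 9.8, 9.9, 9.9 and 9.9 in PCA+LPS, and 9.7, 9.7, 9.6 and 9.8 in PCA+NH3+LPS. Sham replicate 1 lay 0.9 below the next lowest of the 24 arrays, the widest such gap among the 9 genes. The remaining 23 arrays held to a narrow band, with an SD of 0.144 against 0.268 when Sham replicate 1 was included. PCA+LPS exceeded Sham by 0.32 ± 0.157 (SE; unadjusted p = 0.0524, limma adjusted p = 0.669), and by 0.09 without that array.

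Itpr1 is the IP3 receptor that releases calcium from the endoplasmic reticulum, and Car8 is a carbonic anhydrase-related protein that binds that receptor. Both were lowest in Sham replicate 1. In PCA+NH3 against PCA their differences had opposite signs, 0.06 ± 0.111 for Itpr1 and -0.16 ± 0.137 for Car8 (SE), and neither passed. Whether they differ from each other was not tested, and the second probe set of Itpr1 was at -0.22 ± 0.164 (SE). Itpr1 measured 10.6, 11.4, 11.3, 11.3 and 11.2 in Sham, 11.3, 11.4, 10.9, 11.1 and 11.2 in PCA, and 11.2, 11.4, 11.3, 11.2 and 11.1 in PCA+NH3. It was 11.3, 11.4, 11.3, 11.3 and 11.3 in PCA+LPS and 11.3 on all 4 arrays of PCA+NH3+LPS. The low arrays were thus Sham replicate 1 and PCA replicate 3, and the LPS groups were the least variable. Car8 read 10.5, 11.5, 11.1, 11.5 and 11.2 in Sham, 11.3, 11.3, 10.9, 11.2 and 11.2 in PCA, and 11.2, 10.9, 11.3, 10.8 and 10.9 in PCA+NH3. In PCA+LPS it was 11.2, 11.3, 11.3, 11.4 and 11.3, and in PCA+NH3+LPS 11.3, 11.3, 11.2 and 11.2. Its Sham group held both the lowest and the highest arrays of the series, and 3 of the PCA+NH3 arrays lay at or below 10.9. Itpr1 lay between 11.1 and 11.4 in PCA+NH3.

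Homer3, a postsynaptic scaffold that binds the IP3 receptor, and Rgs8, a regulator that shortens G protein signalling, also had their lowest values in Sham replicate 1. Homer3 was 8.7, 9.5, 9.1, 9.3 and 9.2 in Sham, and its means in the PCA, PCA+NH3, PCA+LPS and PCA+NH3+LPS groups were 9.2 ± 0.235, 9.12 ± 0.0837, 9.26 ± 0.0894 and 9.225 ± 0.222 (SD; n = 5, 5, 5 and 4). Rgs8 was 10.1, 10.5, 10.4, 10.6 and 10.7 in Sham, with means of 10.56 ± 0.23, 10.4 ± 0.141, 10.64 ± 0.114 and 10.62 ± 0.05 in the same order. For both genes every group's range overlapped or met that of every other group.

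The other three genes did not share the drop in Sham replicate 1 to the same degree. Pcp2, a Purkinje cell protein that regulates G proteins, was 10.4 there against 10.6, 10.5, 10.7 and 10.5 on the other Sham arrays, and its lowest value was 10.3 in PCA+NH3 replicate 4. Pcp4, which binds calmodulin, was 11.6 there, a value shared by 4 more arrays. Its whole range over 24 arrays was only 0.3. Foxp2, a transcription factor of Purkinje cells, was measured at a low level, with a mean of 6.312, and was 6.1 in Sham replicate 1. Its extremes both lay in PCA+NH3+LPS, at 5.9 in replicate 1 and 6.9 in replicate 2.

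**Figure D1:**
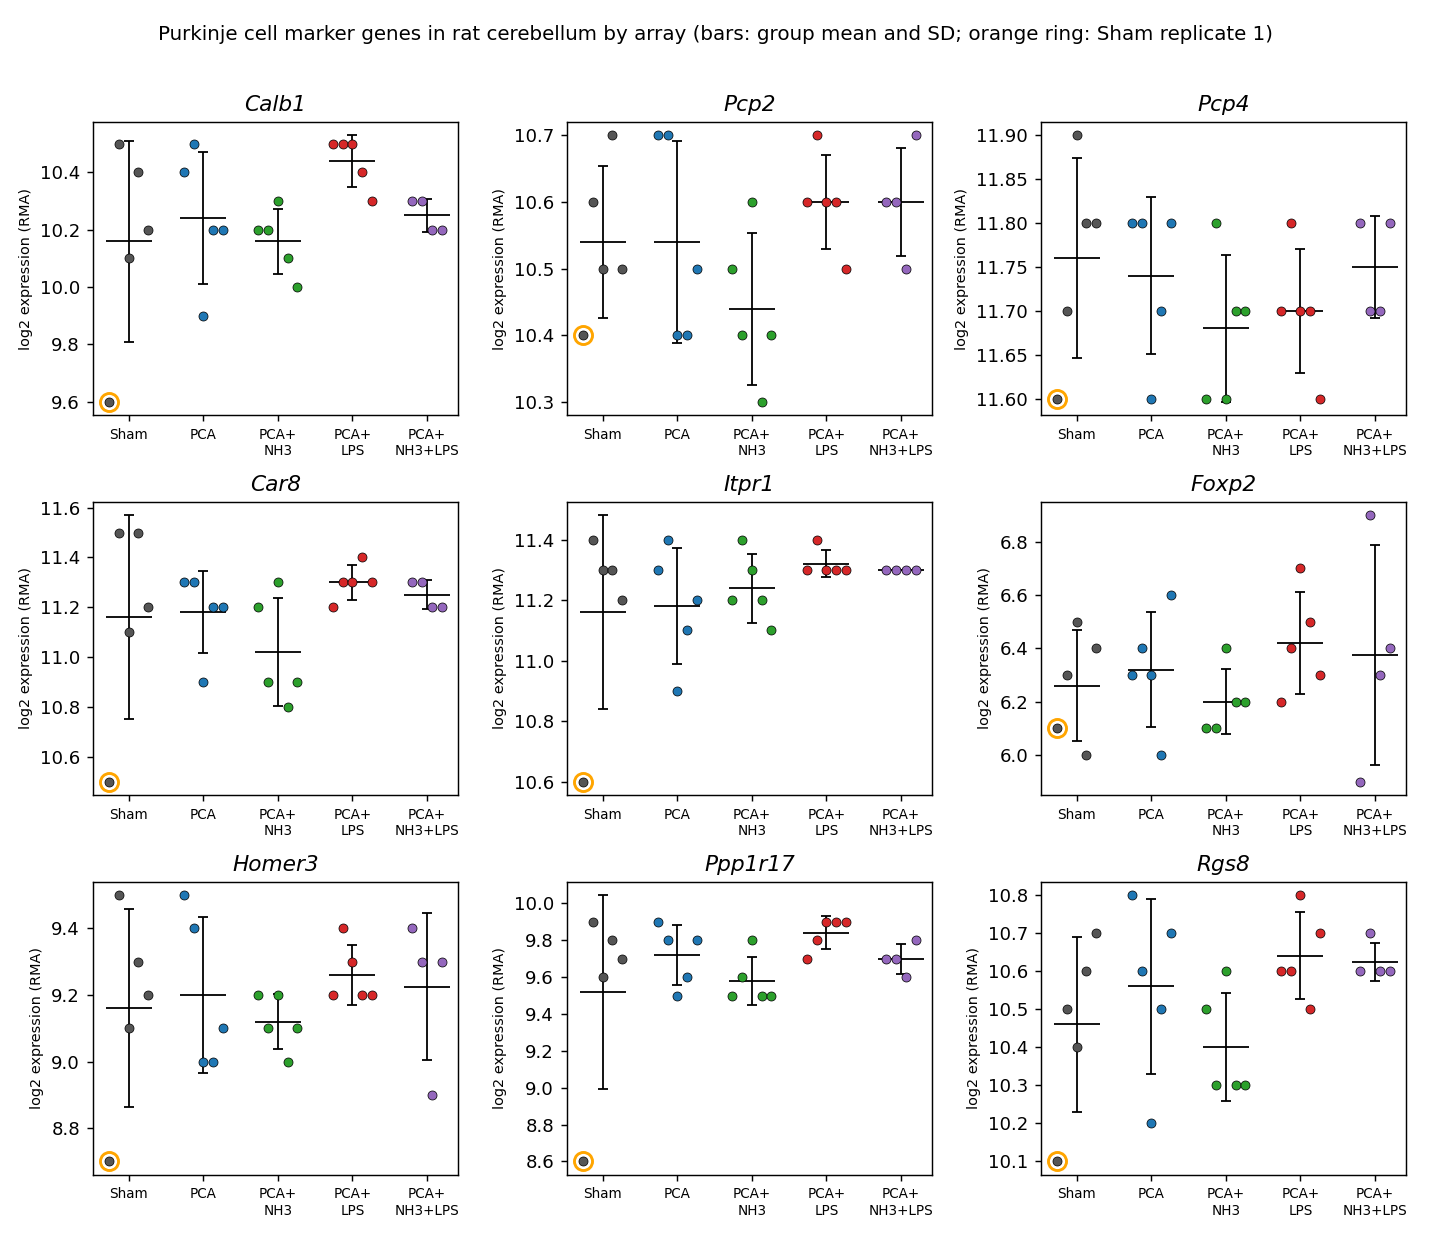
Log2 expression of each of the 9 genes (vertical axis, own scale per panel) on every array, by group (horizontal axis). Points are arrays, horizontal lines are group means and vertical bars are SD. An orange ring marks Sham replicate 1, which is alone at the bottom in Calb1, Car8, Itpr1, Homer3, Ppp1r17 and Rgs8.

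Sham replicate 1 was alone the lowest of 24 arrays in 6 of the 9 genes, whereas it was alone the lowest in 10.8% of all genes. In 5 of the 9 it lay at least 0.5 below the mean of the other 23 arrays, against 4.16% of all genes. The gap ranged from -0.13 in Pcp4 to -1.12 in Ppp1r17, with a median of -0.513, while the median over all genes was -0.013. PCA replicate 3 was the next lowest array: all 9 genes were below their own mean there, and their mean deviation was -0.216, compared with -0.494 in Sham replicate 1. In PCA+NH3 replicates 4 and 5 all 9 were also below their own mean, by -0.171 and -0.16 on average.

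Those arrays were set beside markers of other cells that a cerebellar dissection can hold. Sham replicate 1 was compared with the 22 arrays that remain when PCA replicate 3 is also set aside. All 15 myelin and oligodendrocyte genes were higher in it than on any of those arrays, as were 7 of 13 markers of brainstem and deep nuclei neurons, and 15 of 16 granule cell genes were lower than on any of them. Also higher than on any of them were 4 of 10 astrocyte and Bergmann glia genes (2 were lower) and 3 of 16 microglia genes. Of all genes, 12.1% were lower in it than on any of the 22. The share of all genes higher than on all 22 was not counted. The array's mean deviation was 1.19 for the myelin list, 1.53 for the brainstem list and -0.59 for the granule cell list. PCA replicate 3 had the same signs, with 0.462, 0.864 and -0.246. PCA+NH3 replicates 4 and 5 did not share this, with granule cell means of 0.0664 and 0.0539 and brainstem means of -0.213 and -0.174. Myelin means were -0.185 and 0.309 there, and replicate 5 had the highest choroid plexus mean of all arrays, 2.98.

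**Figure D2:**
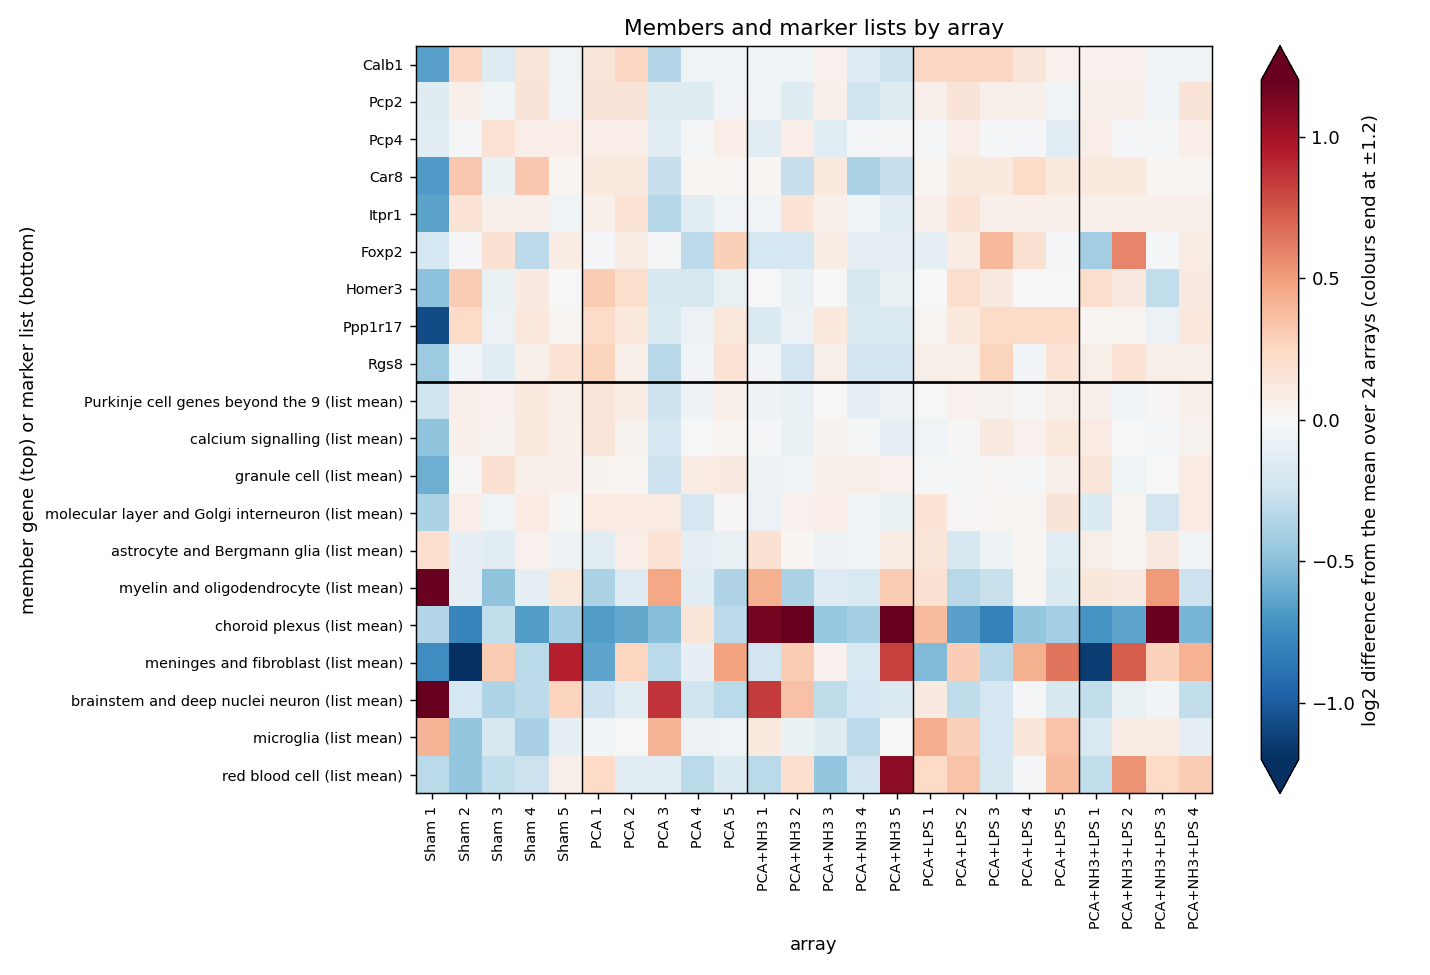
Log2 difference of each array (columns) from the mean over 24 arrays, for the 9 genes (top) and for means of marker lists (bottom). Colours end at 1.2 in either direction. Sham replicate 1 is blue in the 9 genes, in the calcium signalling list and in the granule cell list, and deep red in the myelin and brainstem lists.

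Other Purkinje cell genes were mostly low in that array. In it 18 of 18 calcium signalling genes and 11 of 14 further ones lay below their mean on the 22 arrays. Of all genes 51.7% did. The calcium signalling list holds 18 genes, all measured, and 15 of them were lower in Sham replicate 1 than on any of the 22 arrays, beside the 12.1% of all genes. They include Atp2a3, a calcium pump of the endoplasmic reticulum (8.5 against a mean of 9.368), and Inpp5a, which degrades IP3 (8.9 against 9.582). Of 14 measured genes in a further Purkinje cell list, 5 were lower than on all 22 arrays and 1 was higher. Lhx1, a transcription factor, was 7.1 against 8.205, and Slc1a6, the Purkinje cell glutamate transporter, was 7.4 against 8.405. Scn4b, a sodium channel subunit, was the one that was higher, at 8.7 against 7.459. Over all arrays, Sham replicate 1 included, Scn4b rose with the brainstem list mean within groups, by 0.665 ± 0.131 (SE) per unit. Of the 14 genes 12 fell. The slopes of Scn4b and of 5 of those 12 passed in limma, where 21.5% of all genes did. Slopes of this list without Sham replicate 1 are not reported here. Aldoc, which marks stripes of Purkinje cells and is also made by astrocytes, was 12.1 against 12.11. The genes named from these lists were chosen after their values were seen.

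Whether the 9 genes vary with tissue composition was tested within groups, by the slope of each gene on an array's mean of a marker list in limma, adjusted over all genes outside that list. On the granule cell mean 6 of 9 slopes passed, all positive, against 22.3% of all genes. The slope was 1.36 ± 0.211 (SE) for Ppp1r17, 0.958 ± 0.235 for Car8, 0.861 ± 0.173 for Itpr1 and 0.825 ± 0.22 for Calb1, with limma adjusted p of 8.39e-05, 0.00471, 0.000923 and 0.00856. Rgs8 (0.67) and Homer3 (0.664) passed as well. Pcp4 had an adjusted p of 0.0539, Pcp2 of 0.379 and Foxp2 of 0.822.

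Against the myelin mean 6 of 9 passed, all negative, where 18.4% of all genes passed. The steepest were Ppp1r17 at -0.52 ± 0.094 and Itpr1 at -0.37 ± 0.0659 (SE). Pcp4, whose range is small, passed here at -0.159 ± 0.0483 with a limma adjusted p of 0.0237, and Rgs8 did not, with 0.0555. Against the brainstem mean 6 of 9 passed, again all negative, beside 21.5% of all genes, led by Ppp1r17 at -0.421 ± 0.0756. On the astrocyte and Bergmann glia mean 1 of 9 passed (Ppp1r17, -1.3 ± 0.404), beside 9.44% of all genes. No slope passed on the choroid plexus mean, beside 0.447% of all genes, or on the meninges mean, beside 1.8%. At an unadjusted p below 0.05 there were 0 and 1 of the 9, the latter being Foxp2, beside 5.81% and 12.1% of all genes.

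The slopes that passed depended on 1 array. Without Sham replicate 1 no gene of the 9 passed for the granule cell, myelin or brainstem mean, where 6.31%, 3.32% and 5.14% of all genes still did. All 9 slopes stayed negative for the myelin and brainstem means and 8 stayed positive for the granule cell mean, with Foxp2 at -0.261. Most shrank: Ppp1r17 went from 1.36 to 0.441 on the granule cell mean and from -0.52 to -0.217 on the myelin mean. Pcp4 and Rgs8 barely moved on the granule cell mean, from 0.337 to 0.431 and from 0.67 to 0.662. Without PCA replicate 3 as well, 8 of the 9 granule cell slopes were negative, none passed, and 0.0276% of all genes did. Without Sham replicate 1 alone, the smallest adjusted p was that of Itpr1 on the myelin mean, at -0.233 ± 0.0818 (SE; limma adjusted p = 0.137).

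**Figure D3:**
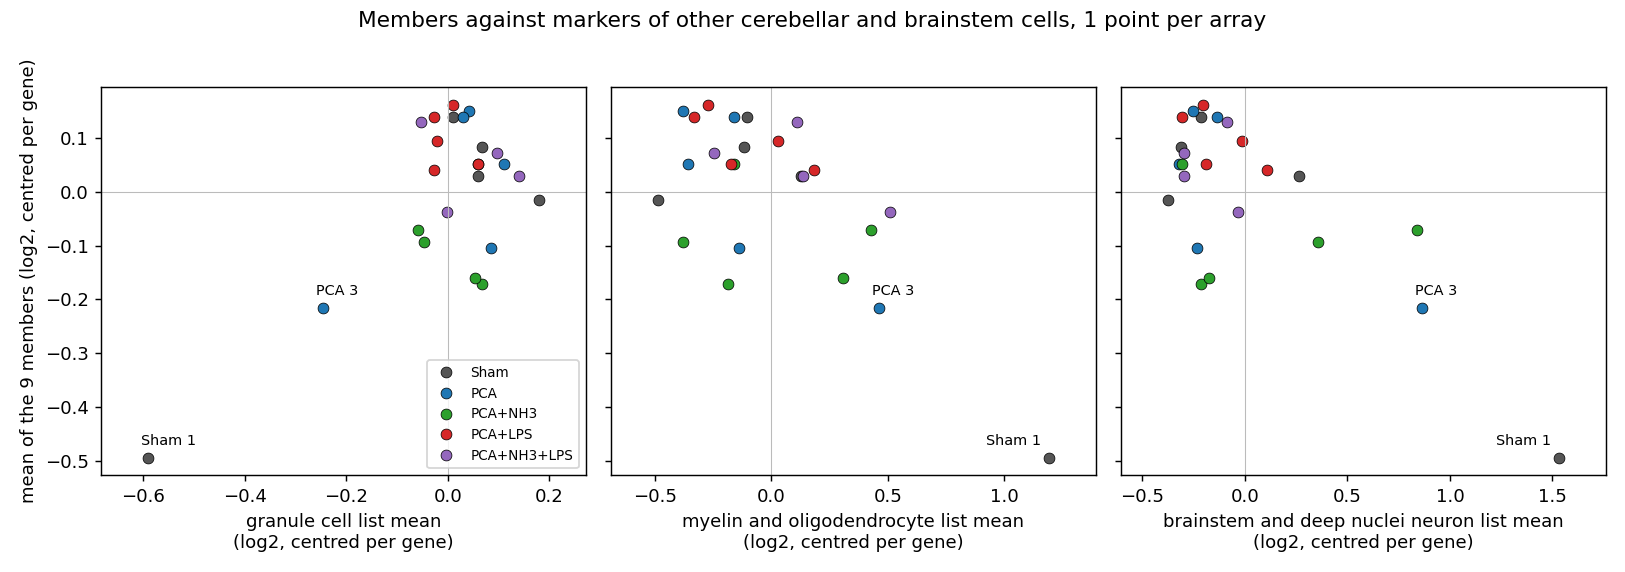
Mean deviation of the 9 genes on each array (vertical axis, log2) against the mean deviation of the granule cell, myelin and brainstem lists (horizontal axes, log2). Points are arrays coloured by group, and Sham replicate 1 and PCA replicate 3 are named. Sham replicate 1 lies at -0.494 vertically and at -0.59, 1.19 and 1.53 horizontally, away from all other points.

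**Figure D4:**
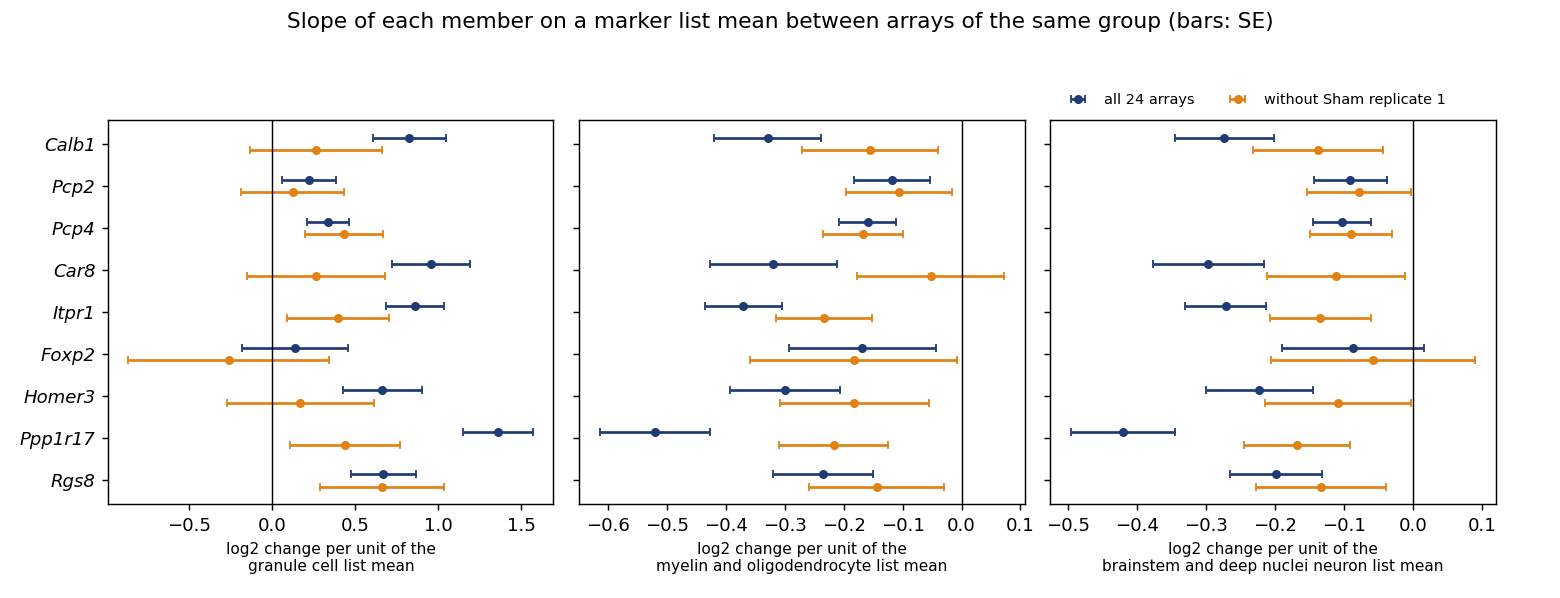
Slope of each gene on the mean of a marker list between arrays of the same group (horizontal axes, log2 per unit of the list mean), with SE as bars. Blue uses all 24 arrays and orange leaves out Sham replicate 1. For Ppp1r17 on the granule cell mean the slope is 1.36 in blue and 0.441 in orange.

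The 9 genes were then compared with each other across the arrays, after removal of the group means. All 36 pairs had a positive Pearson r, from 0.084 to 0.91 with a median of 0.635, and 24 pairs passed after Benjamini-Hochberg adjustment over the 36 (permutation test with 100000 resamples, two-sided). By Spearman's rho 23 passed. The centred values were shuffled over all 24 arrays and not within groups. Spread differed between groups (for Calb1 an SD of 0.351 in Sham and 0.0577 in PCA+NH3+LPS), so that these p-values may be too small. Pairs of other genes were not tested. The closest pair was Calb1 and Itpr1, with r = 0.91 and rho = 0.685 (permutation p = 1e-05 and 0.00033, adjusted p = 3.6e-05 and 0.00132), where 1e-05 is the smallest p these resamples can give. Sham replicate 1 and PCA replicate 3 were farthest from the median of Calb1. Without these 2 arrays, and with the group means taken again, r was 0.7. Calb1 and Car8 reached 0.885, and 0.685 without the same 2 arrays. No pair with Foxp2 passed by Pearson r, and its lowest r was 0.0844, with Pcp4. By rho the pair of Foxp2 and Ppp1r17 passed narrowly (rho = 0.445, permutation adjusted p = 0.0486).

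Without Sham replicate 1 there were 21 pairs that passed and 33 that were positive, with a median r of 0.518. Leaving out PCA replicate 3 as well gave 16 and 29 pairs, with a median of 0.344. Among those that passed there, the pair of Pcp4 and Car8 was negative (r = -0.533, permutation adjusted p = 0.028). Pcp4 lost most: its r with the mean of the other 8 genes was 0.445 on all arrays and 0.149 without Sham replicate 1. Ppp1r17 (0.897 and 0.812), Pcp2 (0.717 and 0.792) and Calb1 (0.897 and 0.785) kept close to the rest. All these pairs share the same arrays, tissue and normalization.

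Symbols that begin with LOC, RGD, AABR, Mir, Olr, Vom or Snor were left out of the search for similar genes. Among all other genes outside the 9, those most like their mean over the 24 arrays, with group means removed, were Inpp5a, Hes3, Sms, Atp2a3 and Shank2. Inpp5a had r = 0.941, and 0.902 without Sham replicate 1. Its value was 8.9 in that array and 9.561 on average elsewhere. Hes3, a transcriptional repressor, had r = 0.923, Sms, spermine synthase, 0.914, Atp2a3 0.899 and Shank2, a postsynaptic scaffold, 0.897. For single genes the nearest were Rapgef4 for Calb1 (0.932), Tmem178a for Ppp1r17 (0.932), Neurod6 for Pcp4 (0.917), Cerk for Homer3 (0.916), Prmt8 for Itpr1 (0.912), Hpcal1 for Rgs8 (0.88) and Phgr1 for Foxp2 (0.807). Car8 was nearest to Calb1 (0.885) and Pcp2 to Homer3 (0.802), both within the 9. Without Sham replicate 1 the r of Tmem178a with Ppp1r17 was 0.689, while that of Neurod6 with Pcp4 was 0.892. These are descriptions over arrays of 1 tissue.

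Portocaval anastomosis alone was compared with sham surgery. None of the 9 genes passed in limma, and 0% of all genes did. Here and in the other 10 contrasts the single unadjusted p below 0.05 among the 9 was that of Calb1 in PCA+LPS against Sham, a contrast in which 7.47% of all genes had one. The median difference was 0.04 and ran from -0.02 in Pcp4 to 0.2 in Ppp1r17, with 7 higher, 1 lower and Pcp2 at 0. Without Sham replicate 1 the median was -0.06, and without PCA replicate 1 or 2 it was -0.01, so its sign depends on single arrays. The 95% interval was -0.156 to 0.156 for Pcp2 and -0.124 to 0.524 for Ppp1r17. Over the mean of all 4 PCA groups against Sham 0 of 9 passed (0.00551% of all genes), with a median of 0.0688 on all arrays and -0.04 without Sham replicate 1. Of the further lists, 0 of 18 calcium signalling genes and 0 of 14 Purkinje cell genes passed in either comparison.

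Infusions were compared with PCA, and these comparisons share the 5 PCA arrays. For PCA+NH3 against PCA 0 of 9 passed (0% of all genes), with 8 lower and a median of -0.1. Car8 and Rgs8 had the most negative difference, -0.16 in each (SE 0.137 and 0.106), and Itpr1 was the exception at 0.06. PCA+LPS against PCA gave 0 of 9 (0% of all genes), with 8 higher and a median of 0.1, led by Calb1 at 0.2 ± 0.124 (SE). PCA+NH3+LPS against PCA gave 0 of 9 (0% of all genes), with a median of 0.055 and a range from -0.02 to 0.12, and the median was -0.025 without PCA replicate 3.

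Set against Sham, whose 5 arrays these comparisons share, PCA+NH3 gave 0 of 9 (0% of all genes) with a median of -0.06, and 0.0225 with the choroid plexus mean as a covariate. PCA+LPS gave 0 of 9 (0.0331% of all genes) with a median of 0.16, the highest of the 11 contrasts, and 0.025 without Sham replicate 1. PCA+NH3+LPS gave 0 of 9 (0% of all genes) with a median of 0.09, and -0.05 without that array. A limma F-test for any difference among the 5 groups gave 0 of 9 (0.011% of all genes), with unadjusted p from 0.152 in Rgs8 to 0.812 in Homer3.

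Taking the 4 PCA groups as ammonia crossed with LPS leaves the Sham arrays out of the difference. The ammonia factor, with ammonia minus without, gave 0 of 9 (0.0165% of all genes), 8 lower and a median of -0.0825, compared with -0.005 over all genes. Ppp1r17 was at -0.14 ± 0.114, Calb1 at -0.135 ± 0.0902 and Itpr1 at 0.02 ± 0.0808 (SE). The LPS factor gave 0 of 9 (0.0165% of all genes), with all 9 higher and a median of 0.12, compared with 0.0025 over all genes. Its differences ran from 0.015 in Pcp4 to 0.175 ± 0.0998 in Car8, and the smallest unadjusted p was 0.0576, for Pcp2 at 0.11 ± 0.0551 (SE; limma adjusted p = 0.997). The 9 genes are correlated across arrays, so that a shared direction is not 9 separate observations. The interaction gave 0 of 9 (0% of all genes), with 6 higher and 2 lower, and its widest interval was -0.472 to 0.472, in Ppp1r17.

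In the further lists the LPS factor was positive in 16 of 18 calcium signalling genes, with a median of 0.0437, and in 10 of 14 other Purkinje cell genes, with a median of 0.0338. None of those genes passed. By unadjusted p the leading ones were Kcnma1, a calcium-activated potassium channel (0.138 ± 0.0761), Itpka, which phosphorylates IP3 (0.212 ± 0.134), and Stk17b, a kinase (0.275 ± 0.118, SE). For the ammonia factor 14 of 18 and 10 of 14 were negative, with medians of -0.0475 and -0.0288, and none passed.

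**Figure D5:**
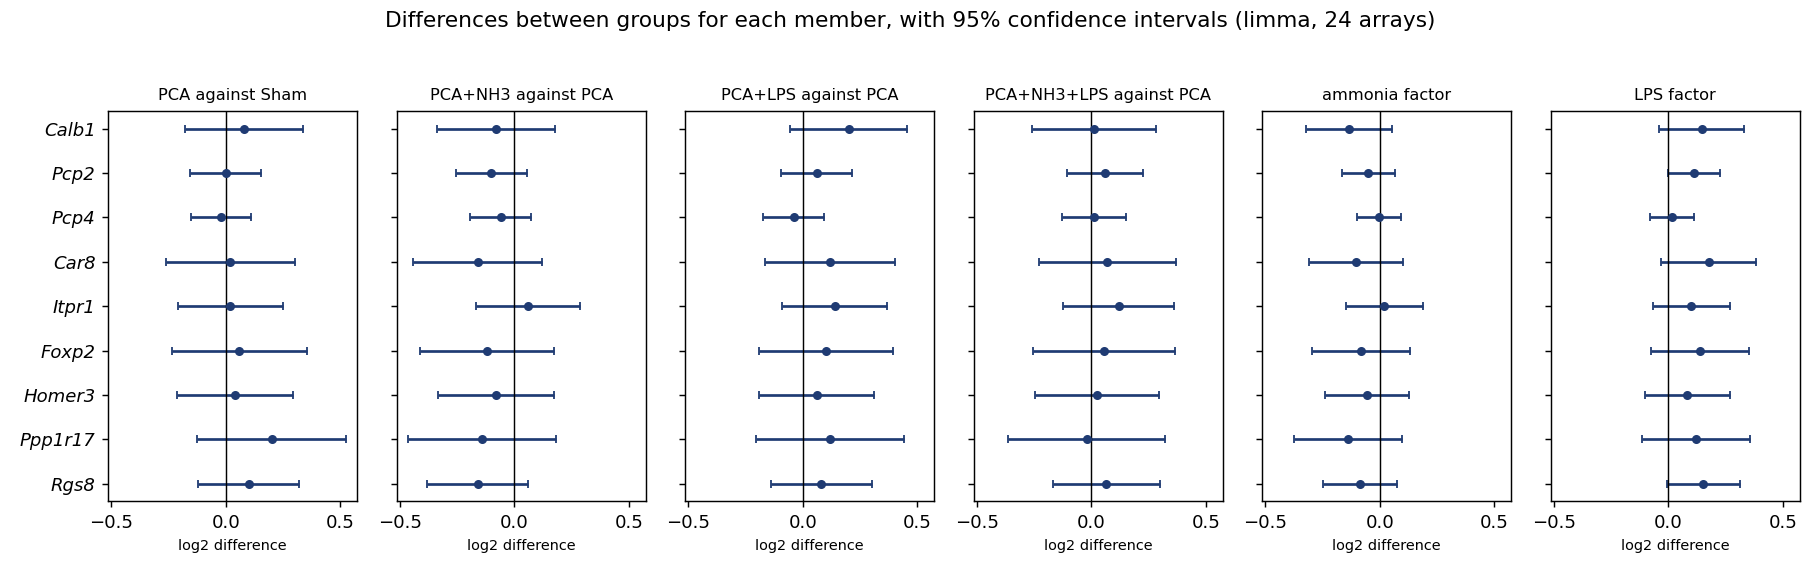
Log2 difference of each of the 9 genes (horizontal axes) in 6 comparisons from 1 limma fit of 24 arrays, with 95% confidence intervals as bars. Every interval shown includes 0. In the LPS factor all 9 points lie at or right of 0.015.

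Markers of other tissue also differed between the arrays of the infused groups. All 14 choroid plexus genes were higher with ammonia, with a median ammonia factor of 1.04, although none passed the adjusted test (12 had an unadjusted p below 0.05). The list mean ranged from -0.453 to 2.98 in PCA+NH3 and from -0.71 to 2.82 in PCA+NH3+LPS, against -0.668 to 0.147 in PCA and -0.81 to 0.375 in PCA+LPS. With ammonia all 15 myelin genes were also higher (median 0.15) and 15 of 16 microglia genes lower (median -0.176). With LPS 12 of 13 brainstem genes were lower (median -0.095), 14 of 16 microglia genes higher (median 0.0938) and all 14 choroid plexus genes lower (median -0.384), and none of these genes passed either. In PCA+LPS against PCA 6 choroid plexus genes were higher and 8 lower (median -0.02). Not every array with ammonia was high in this list. PCA+NH3 replicates 3 and 4 had list means of -0.453 and -0.403, and PCA+NH3+LPS replicates 1, 2 and 4 of -0.71, -0.632 and -0.56. The cause of the choroid plexus differences was not tested. A microglia covariate was not tested. High choroid plexus values came from PCA+NH3 replicates 1, 2 and 5 and PCA+NH3+LPS replicate 3. With the choroid plexus mean as a covariate the median ammonia factor of the 9 genes was -0.0282 instead of -0.0825, and without those 4 arrays it was -0.0283. The median LPS factor was 0.0941 with that covariate and 0.122 without the 4 arrays. With the granule cell, astrocyte, myelin, meninges or brainstem mean as covariate, the median ammonia factor lay between -0.0912 and -0.0372 and the median LPS factor between 0.0921 and 0.148. In none of these fits did a gene of the 9 pass in any comparison.

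The second probe sets gave a partial check. That of Foxp2 had its lowest value in Sham replicate 1, 5.1 against a mean of 5.661 elsewhere, unlike the probe set used. Its differences had the same sign as those of the used one in all 11 contrasts. That of Itpr1 was 6.4 in Sham replicate 1 against 6.409 elsewhere, while the used probe set differed by -0.665. Its difference for PCA+NH3 against PCA was -0.22 ± 0.164, and 0.06 in the used one, and for PCA+LPS against PCA it was -0.08 and 0.14. No contrast passed for either second probe set.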

How the data were processed

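Total RNA of cerebellum was hybridised to 24 one-colour Affymetrix arrays, per the labels' protocols. The log2 expression values deposited by the authors came from RMA, per the submitters' processing notes; its version and settings: not given in the sources used here. Values ran from 1.5 to 13.5 in steps of 0.1. A second deposited table held the same values, with 0 differences. Arrays have no read depth, and their number limits the precision.

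Of 29016 probe sets, 19338 carried 1 symbol, 1521 several and 8157 none. Symbols were current in RefSeq for 14126 probe sets, updated through synonyms for 3388 and kept as given for 1824. Where a gene had more than 1 probe set (836 genes), that of the highest mean was used, leaving 18137 genes.

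One limma fit (3.58.1, R 4.3.3) with a mean per group covered all arrays, with 19 residual and 4.39 prior degrees of freedom. All p-values are two-sided and were adjusted by the Benjamini-Hochberg method across the genes tested, with 0.05 as the threshold. Intervals cover 95%. The ammonia factor is the mean of PCA+NH3 and PCA+NH3+LPS minus that of PCA and PCA+LPS, and the LPS factor is built likewise. Slopes added an array's mean of 1 marker list, each gene centred on its mean over 24 arrays. Pairs were tested by permutation in Python 3.11.15 with scipy 1.17.1. The fits were tested on simulated data.

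Alternatives were each array left out, a replicate block, groups of arrays left out, other normalizations, filters and variance models, all probe sets, and list means as covariates. Deviations of same-numbered arrays of different groups had a median correlation of 0.0976 (from -0.473 to 0.567, with 23 of 46 pairs above 0.1), and those of differently numbered arrays -0.0113. Pairing was taken to need every pair above 0.1, so the numbers were not treated as pairs in the main fit. A rule this strict cannot exclude a link between some same-numbered arrays. The 9 genes and the marker lists were chosen with earlier results of these data known. Named genes are the 9, up to 4 of smallest p per list described, the 5 most correlated with the mean of the 9, and the 1 nearest to each, unless stated. The choice by correlation left out the symbol types given above. Values of some single genes of the calcium signalling list are not reported here.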

Additional observations from a re-analysis of the deposited data

Results flagged for a closer look

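In 45 groups of arrays (9 genes in 5 groups), the gap of an extreme array to its nearest neighbour was compared with the range of its group, and 5 gaps were past Dixon's 95% critical value. Chance gives about 1 in 20 groups. Ppp1r17 was 8.6 in Sham replicate 1, where the next lowest Sham array was at 9.6. Itpr1 was 10.6 in the same array, with 11.2 next. Car8 was 10.9 in PCA replicate 3, with 11.2 next. The remaining ones were single rounding steps above arrays with equal values: Itpr1 at 11.4 in PCA+LPS replicate 2, with 11.3 on the others, and Rgs8 at 10.7 in PCA+NH3+LPS replicate 2, with 10.6 on the others.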

How the results depend on the processing

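In all alternatives tried, 0 of the 9 genes passed in any of the 11 contrasts or the F-test, and the smallest limma adjusted p reached was 0.323, for PCA+NH3 against Sham. At an unadjusted p below 0.05, 1 of the 9 passed in PCA+LPS against Sham (Calb1) and 0 in the other contrasts, on all arrays. Over all genes the counts ranged from 0 to 16 for PCA+LPS against Sham (6 on all arrays), 0 to 6 for the ammonia factor (3), 1 to 5 for the LPS factor (3), 0 to 3 for all PCA groups against Sham (1) and 0 to 9 for the F-test (2). Where 0 passed on all arrays, the highest count was 3 for PCA+NH3 against PCA, 2 for PCA+LPS against PCA, 4 for PCA+NH3+LPS against PCA and 1 for PCA+NH3+LPS against Sham, and it was 0 in the other contrasts. The median difference of the 9 genes moved by less than the spread between replicates in all 462 cases. That spread, the SD of their mean within groups, was 0.148. It exceeds the median itself in every contrast but PCA+LPS against Sham (0.16), so this comparison cannot show that a median is stable. The sign of the median changed in 14 of the 462 cases. Leaving out Sham replicate 1 changed it against Sham for PCA (-0.06), PCA+NH3+LPS (-0.05) and the mean of the PCA groups (-0.04), and not for PCA+LPS (0.025) or PCA+NH3 (-0.14). It also changed for PCA+NH3+LPS against PCA without PCA replicate 3 (-0.025) and for PCA+NH3 against Sham with the choroid plexus covariate (0.0225). Leaving out each array in turn, the number of the 9 genes with a slope that passed ranged from 0 to 7 for the granule cell mean, 0 to 7 for the myelin mean, 0 to 7 for the brainstem mean and 0 to 2 for the astrocyte mean; the 0 for the first 3 came without Sham replicate 1, and leaving out PCA replicate 3 gave 3 for the myelin mean. Without Sham replicates 1 and 2 together the counts were 0 for all these means, and also without Sham replicate 1 and PCA replicate 3 together, an alternative chosen after seeing the data, as was leaving Sham replicate 1 out of the pairs. With cyclic loess or array weights 3 passed for the myelin mean. For the astrocyte mean 0 passed with the replicate number as a block, without the 4 arrays with choroid plexus markers, with median centring, with array weights and with all probe sets. With the replicate block 6 genes still passed for the myelin mean, with Rgs8 in place of Car8, and besides these and the astrocyte slope of Ppp1r17 no call of the 9 changed. The number of genes passing for the granule cell slope ranged from 5 to 5479 of 18121, for the astrocyte slope from 72 to 2531, for the myelin slope from 181 to 4049, for the brainstem slope from 141 to 5130, for the choroid plexus slope from 0 to 130 and for the meninges slope from 123 to 512. Foxp2, with a mean of 6.31, was not tested when only genes at or above the median level of 6.33 were kept. The cause of these changes was not tested. Steps of 0.1 limit genes of small range, such as Pcp4.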
